A study of Mus musculus with 7 samples.

Results

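The 9 genes described here encode enzymes of serine synthesis and of the folate cycle: Phgdh, Psat1, Psph, Shmt1, Shmt2, Mthfd1, Mthfd1l, Mthfd2 and Tyms. They were chosen by symbol from the 27998 genes of the count table, and each symbol matched 1 row. Their counts of unique molecular identifiers (UMIs, each standing for 1 captured RNA molecule) were followed in the myogenic cells of 7 mouse single-cell RNA libraries, and in those cells with and without a UMI of Top2a or Mki67, genes of dividing cells. All mice were of the strain that the labels spell C56BL/6J. Total muscle (2 libraries) held the live sorted cells of dissociated hindlimb muscle from wild-type mice aged 3 months. Muscle stem cells of uninjured muscle, called homeostatic (MuSCs, the satellite cells of muscle; 2 libraries) were sorted from muscle, with no injury, age or muscle named in the labels. Injured MuSCs (2 libraries) came by sorting from TE-EDL muscles that had received 2 µM notexin, a toxin of snake venom that kills muscle fibres, 60 h earlier, and the labels give no age. Primary myoblasts (1 library) were sorted satellite cells of hindlimbs from wild-type mice 3 months old, kept for 4 to 5 passages on collagen in medium with 10% horse serum and bFGF at 2.5 ng/µl. The labels do not say whether libraries of a group came from separate animals, so p-values measure the spread between these libraries, which may be technical.

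Serine is made from the glycolytic intermediate 3-phosphoglycerate by PHGDH, PSAT1 and PSPH in turn. The serine hydroxymethyltransferases SHMT1 (cytosol) and SHMT2 (mitochondria) then split serine into glycine and a folate-bound carbon unit. MTHFD1 interconverts the folate-bound units in the cytosol, while MTHFD2 and MTHFD1L handle them in mitochondria and release formate. These units feed purine synthesis, the methionine cycle and TYMS, the enzyme that makes thymidylate for DNA. Satellite cells are quiescent in resting muscle and enter the cell cycle after injury.

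Myogenic cells were taken from clusters named by a list of 14 myogenic markers, and are written as myogenic-like because these names were rebuilt from the data. The 10297 myogenic-like cells came from 14945 cells kept. Total muscle gave 90 and 128 such cells (319405 and 449500 UMIs), homeostatic MuSCs 1491 and 1364 (3412463 and 3113423 UMIs), injured MuSCs 1157 and 1842 (8767195 and 6436783 UMIs) and primary myoblasts 4225 (108159280 UMIs). The groups fell into separate clusters. Total muscle and homeostatic MuSCs made up clusters 9, 10 and 11. Injured MuSCs alone made up clusters 19, 20 and 21, and the culture made up clusters 17, 18, 22 and 23, apart from 1 total muscle cell in cluster 17. Clusters 17, 19 and 20 had none of these markers among their 10 leading genes and took the name from 6, 5 and 5 markers raised against total muscle. The summed level of the 14 myogenic markers was 7176 to 9584 UMIs per 1000000 UMIs (counts per 1000000, CPM) in the uninjured libraries, 1882 and 2263 in injured MuSCs and 3488 in culture. The injured libraries stood apart in a further way: the ribosomal pseudogene Rps12-ps3 was at 1242 and 1355 CPM there and between 0 and 0.321 in the other 5 libraries, and it led the injured clusters together with mitochondrial genes. They also shared 253 cell barcodes. With those barcodes left out, 7 members were called higher after injury, as with them. Handling, sequencing and counting of the injured libraries cannot be told apart from injury.

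Promoters are shown for 4 members: Psat1, Tyms and Phgdh, which were called higher after injury, and Mthfd2, whose level after injury was not called different. The letters are the bases before a RefSeq transcription start on GRCm38.p6, in the direction of the gene and without annotated exon bases. All 4 genes lie on the minus strand. Capitals mark the E-box CACGTG, the motif TTNGCGC of E2F factors or a CCAAT box, on either strand. The windows are chr19:15925060-15925309 for Psat1, which has a second window in the table, chr3:98339991-98340219 for Phgdh, chr5:30073626-30073875 for Tyms and chr6:83317607-83317854 for Mthfd2.
Psat1: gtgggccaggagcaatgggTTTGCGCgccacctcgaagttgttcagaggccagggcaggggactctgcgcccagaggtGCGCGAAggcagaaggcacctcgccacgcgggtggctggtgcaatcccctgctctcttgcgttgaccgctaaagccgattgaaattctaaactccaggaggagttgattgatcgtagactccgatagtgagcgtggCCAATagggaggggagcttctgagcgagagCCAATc
Phgdh: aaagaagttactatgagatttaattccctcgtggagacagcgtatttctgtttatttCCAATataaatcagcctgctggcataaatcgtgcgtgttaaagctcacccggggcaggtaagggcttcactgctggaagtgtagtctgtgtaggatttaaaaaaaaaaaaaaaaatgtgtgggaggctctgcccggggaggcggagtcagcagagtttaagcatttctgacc
Tyms: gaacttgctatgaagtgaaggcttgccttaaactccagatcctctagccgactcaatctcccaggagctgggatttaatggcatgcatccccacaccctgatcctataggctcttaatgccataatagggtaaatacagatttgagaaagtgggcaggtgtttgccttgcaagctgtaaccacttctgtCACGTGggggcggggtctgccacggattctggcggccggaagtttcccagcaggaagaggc
Mthfd2: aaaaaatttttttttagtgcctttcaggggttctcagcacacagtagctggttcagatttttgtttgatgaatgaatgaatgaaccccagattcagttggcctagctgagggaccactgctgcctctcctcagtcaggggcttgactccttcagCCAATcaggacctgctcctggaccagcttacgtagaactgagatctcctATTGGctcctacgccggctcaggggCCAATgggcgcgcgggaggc
The table gave 10 windows for the 9 members, each from 250 bases before to 50 bases after the start, and motifs were searched in these full windows. CCAAT was found in the windows of 6 members (Phgdh, Psat1, Psph, Shmt1, Mthfd1 and Mthfd2) and in 37.4% of the 32851 promoter windows in the table. TTNGCGC was found for Phgdh, Psat1 and Shmt1 (6.36% of all windows), and 2 matches stand in the Psat1 letters above. The second Psat1 window, not shown, held no match to any motif searched. CACGTG was found for Tyms only among the members (7.15% of all windows). No member window held TGATGNAA, the core of the C/EBP-ATF element (3.97% of all windows), or TTTCCCGC, a further E2F motif (1.07%). A match describes the letters and not a site in use.

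After injury, 7 of the 9 members were higher in MuSCs and none was lower, by edgeR's quasi-likelihood test at an adjusted p under 0.05. Of all 10623 genes tested, 38.4% were higher and 37.3% lower by the same rule. The members' median log2 fold change was 2.49, beside 0.03 over all genes tested. The 3 serine synthesis genes, Shmt2, Mthfd1, Mthfd1l and Tyms were the ones that rose, and Shmt1 and Mthfd2 were not called. Levels are CPM over the myogenic-like cells of a library. They were compared for each gene across libraries and not between genes.

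Phgdh, the first enzyme of serine synthesis, stood at 20.8 and 19.9 CPM in homeostatic MuSC 1 and 2, at 199.7 and 151 in injured MuSC 1 and 2 and at 692 in primary myoblasts. In total muscle it had 0 UMIs in library 1, which allows a level of up to 9.39 CPM, and 17.8 CPM in library 2. All injured and cultured values lay above all values of uninjured cells. The rise after injury was 10.6-fold (log2 3.40 ± 0.19 SE, n = 2 against 2, adjusted p = 1.52e-10 with edgeR). Phgdh lies at chr3:98313170-98339990 (GRCm38, minus strand). The last 300 bases of its transcripts match 15 other annotated genes, mostly pseudogenes, none of which has a row in the count table. Its counts are therefore uncertain as to which copy they came from.

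Psat1, the aminotransferase of the second step (chr19:15904678-15947337), was at 25.5 and 20.9 CPM in homeostatic MuSC 1 and 2, and at 236 and 248 in the injured libraries. Of the 9 members it had the largest log2 fold change after injury, 3.67 ± 0.18 (12.8-fold, adjusted p = 2.34e-11). In culture it stood at 188, below both injured libraries, and in total muscle at 40.7 and 42.3, above both homeostatic libraries. Psph, the phosphatase that completes serine synthesis (chr5:129765558-129787449), was at 17.3 and 16.1 in homeostatic and 48.6 and 54.2 in injured MuSCs. That is a 3.77-fold rise (log2 1.92 ± 0.19, adjusted p = 1.64e-07). Its level in culture, 361, was far above those of the other 6 libraries, which ranged from 16.1 to 54.2. Neither gene has a near-identical copy among the annotated transcripts.

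The 2 serine hydroxymethyltransferases differed in their outcome after injury. Shmt2, the mitochondrial enzyme (chr10:127517123-127522444), was at 17.9 and 16.4 CPM in homeostatic MuSCs and at 84.5 and 72.2 in injured MuSCs, a log2 fold change of 2.49 ± 0.19 (5.61-fold, adjusted p = 4.93e-09). Shmt1, the cytosolic enzyme (chr11:60788104-60811718), was at 23.4 and 29.5 in homeostatic and at 21.8 and 23.0 in injured MuSCs. Its log2 fold change was 0.06 ± 0.20 (adjusted p = 0.810), with the other sign (-0.24) when libraries were scaled by their totals alone. The difference between the fold changes of the pair was not tested. Ndufa4l2 overlaps Shmt2 and Smcr8 overlaps Shmt1, each on the opposite strand, and the sources used here do not state whether strand was used in counting.

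Mthfd1, the cytosolic folate enzyme (chr12:76255298-76319803), went from 8.50 and 11.9 to 23.7 and 20.5 CPM, a log2 fold change of 1.42 ± 0.24 (2.68-fold, adjusted p = 5.17e-05). Mthfd1l, the mitochondrial formate-releasing enzyme (chr10:3973118-4167081), rested on 17 and 8 UMIs in homeostatic MuSCs, or 4.98 and 2.57 CPM, against 25.3 and 31.7 CPM in injured MuSCs. It rose by 3.18 ± 0.30 on the log2 scale (9.06-fold, adjusted p = 7.45e-08). In total muscle it had no UMI in either library, which allows up to 9.39 and 6.67 CPM. Levels in culture were 34.5 CPM for Mthfd1 and 34.3 for Mthfd1l. Mthfd2 (chr6:83305691-83325908) did not follow its mitochondrial partners. It stood at 237 and 228 in homeostatic and 229 and 218 in injured MuSCs, and its log2 fold change of 0.24 ± 0.14 did not pass (adjusted p = 0.137). The groups overlap on the plain scale. Scaling by totals alone gave -0.06, and taking all cells of the sorted libraries gave 0.32 with a call (adjusted p = 0.0392). From the lowest to the highest of the 7 libraries Mthfd2 ranged from 218 to 306.

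Tyms, thymidylate synthase (chr5:30058202-30073617), was at 6.45 and 7.71 CPM in homeostatic MuSCs (22 and 24 UMIs) and at 70.3 and 55.0 in injured MuSCs. The rise was 10.9-fold (log2 3.45 ± 0.23, adjusted p = 1.33e-09). The levels in total muscle, 6.26 and 6.67, lay near those of homeostatic MuSCs and rested on 2 and 3 UMIs. Tyms has 1 near-identical copy, a pseudogene without a row in the table.

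**Figure D1:**
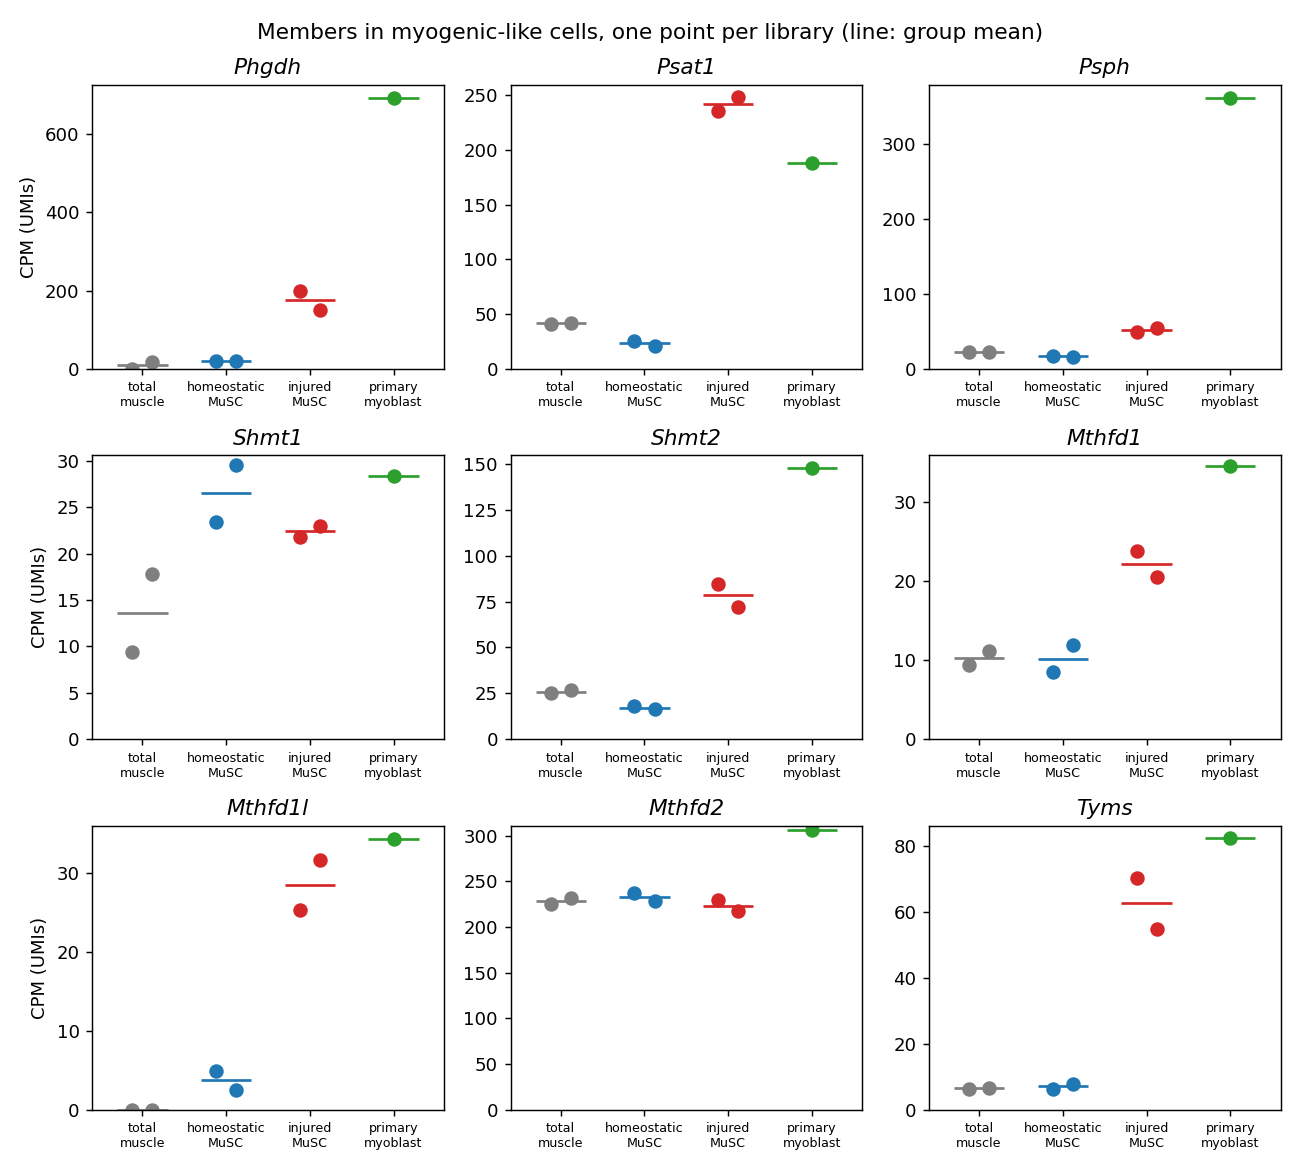
Level of each member in myogenic-like cells, in CPM on a linear axis from 0, with 1 point per library and a line at the group mean. Phgdh and Psph are highest in the single culture library (692 and 361), and Psat1 is highest in injured MuSCs (236 and 248). Mthfd1 (34.5), Mthfd1l (34.3), Shmt2, Tyms and Mthfd2 are also highest in culture in CPM. Mthfd2 stays between 218 and 306 in all 7 libraries.

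Markers of other cells moved with the groups and are given for that reason. The summed fibro-adipogenic list (12 genes) was at 915 and 954 CPM in homeostatic MuSCs and at 31.0 and 37.6 in injured MuSCs. The erythroid list (5 haemoglobin and related genes) was at 3845 and 937 against at most 3.31. The lymphatic or venular endothelial list (7 genes) went from 1500.4 and 1712 to 199 and 238, the mural list (9 genes) from 291 and 241 to 42.4 and 51.0 and the endothelial list (9 genes) from 303 and 345 to 193 and 214. Higher in injured MuSCs were the mature myofibre list (10 genes; 29.9 and 43.7 against 152 and 276), the tenocyte list (7 genes; 12.6 and 23.8 against 76.1 and 106) and the epithelial list (7 genes; 0.879 and 0.642 against 21.4 and 18.2). B cell markers (6 genes) stood between 2.64 and 4.97 and T or NK markers (7 genes) between 0.342 and 3.21 in these 4 libraries, with 6 of the 7 T or NK markers at 0 in 3 of them. In total muscle these lymphoid cells had the highest Phgdh. Glial-like cells overlapped them for Phgdh and had the highest Psat1. The glial list (7 genes) was at 169 and 174 CPM in homeostatic MuSCs and at 163 and 276 in injured MuSCs. The part of these markers in the members' results was not tested.

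Next, the comparison was repeated in cells without any Top2a or Mki67 UMI. Such UMIs were found in 752 and 819 injured cells (65.0% and 44.5%), in 7 and 4 homeostatic cells (0.469% and 0.293%) and in 2116 cultured cells (50.1%). Depth sets part of these shares. With each cell thinned to 1000 UMIs they were 18.5% (95% exact binomial interval 16.3 to 20.9) and 17.0% (15.3 to 18.8) in injured MuSCs, 0.168% (0.0203 to 0.605) and 0.101% (0.00255 to 0.559) in homeostatic MuSCs and 13.5% (12.5 to 14.6) in culture. In homeostatic MuSC 1 and 2, 300 and 370 cells were too shallow for this and were left out, as were 9 in injured MuSC 2. Cells outside the myogenic class in the injured libraries had such a UMI in 12.8% (6.56 to 21.7) and 11.0% (6.74 to 16.6) after thinning, with median depths of 2622.5 and 1052.5 UMIs against 7431 and 3281.5 in the myogenic-like cells. Cells without such a UMI are therefore not shown to be outside the cycle. The cells outside the myogenic class numbered 86 and 334 before thinning. Of these, 49 and 270 lay in a cluster left unnamed, so they are not shown to be of other cell types.

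Without the positive cells, the same 7 members were higher after injury and none was lower. Of 9790 genes tested, 36.0% were higher and 37.2% lower. The members' median log2 fold change was 2.25, beside -0.05 over all genes. Tyms remained at 3.26 ± 0.25 (adjusted p = 1.36e-09): its level was 63.1 and 50.4 CPM in the injured cells left, of 405 and 1023 cells. Phgdh was at 3.40 ± 0.20, Psat1 at 3.52 ± 0.19 and Mthfd1l at 3.06 ± 0.34. Shmt2 was at 2.25 ± 0.21, Psph at 1.86 ± 0.22 and Mthfd1 at 1.28 ± 0.28, and each of these 6 passed. Shmt1 (0.05 ± 0.24) and Mthfd2 (0.05 ± 0.15) did not. A wider list of 18 cycling genes left only 5 and 79 injured cells. In those, 3 of 8 members tested were called, while the calls of Tyms (1.26 ± 0.89, adjusted p = 0.278), Psph (1.30 ± 0.72, adjusted p = 0.153) and Shmt2 (1.58 ± 0.66, adjusted p = 0.0501) were lost and Mthfd1 was not tested. Calls fell over all genes too: of 6905 tested, 935 were higher and 1267 lower, and the median over all genes was -0.43. The estimates of these 3 members were also below those with the 2 genes alone (Tyms 3.26, Shmt2 2.25 and Psph 1.86). The part of the small number of cells in the lost calls was not tested.

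Within the injured and cultured libraries, cells with a Top2a or Mki67 UMI were then compared with the other myogenic-like cells of the same library, with library as a block. None of the 9 members passed. The same test called 0.0506% of 9876 genes higher and 0.597% lower, while 1566 genes had an unadjusted p under 0.05, so the count of members says little by itself. The log2 fold changes were 0.86 ± 0.36 for Tyms (unadjusted p = 0.0486, adjusted p = 0.311 with edgeR), 0.35 ± 0.08 for Shmt2 (adjusted p = 0.133), 0.30 ± 0.07 for Mthfd2 (0.138) and 0.23 ± 0.06 for Psat1 (0.182). Phgdh was at -0.02 ± 0.07 and Psph at 0.04 ± 0.11. DESeq2 called Shmt2 alone (0.36, adjusted p = 0.0494). Without the primary myoblast library Mthfd2 (0.22), Shmt2 (0.28) and Psat1 (0.18) were called higher, with adjusted p of 0.00640, 0.0412 and 0.0334, the genes called came to 276 higher and 391 lower, and Tyms was at 0.18. With no filter on low counts Tyms (0.88), Mthfd2 (0.33), Shmt2 (0.37) and Psat1 (0.25) passed.

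The value in each library shows where Tyms differed. In injured MuSC 1 it was at 73.3 CPM in positive cells and 63.1 in the others, and in injured MuSC 2 at 59.4 and 50.4. In culture it was at 129 and 31.1, a ratio of 4.15, against 1.16 and 1.18 in the injured libraries. Shmt1 had a like pattern, at 22.7 and 19.6 in injured MuSC 1, 20.8 and 25.2 in injured MuSC 2 and 40.1 and 15.5 in culture (ratio 2.59). The cultured cells without such a UMI were thus below the injured ones for Tyms in CPM.

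Phgdh stood at 199.3 with and 200.7 without the UMI in injured MuSC 1 and at 146 and 158 in injured MuSC 2. In culture the pair was 741 and 637. For Mthfd2 the ratios were 1.19, 1.20 and 1.46, for Shmt2 1.22, 1.29 and 1.45 and for Psat1 1.13, 1.20 and 1.32, each above 1 in all 3 libraries. A test of culture minus injured for this ratio called 4 members (Tyms, Shmt1, Mthfd2 and Phgdh), beside 6.49% of genes higher and 5.49% lower (641 and 542 genes, and 806 and 393 without scaling). The test rests on 2 injured libraries with 1 residual degree of freedom, and the cultured library is assumed to vary like them. Its calls therefore lean on variance shared over genes and measure no spread between cultured libraries. Cultured cells were also deeper, with a median of 24637 UMIs. With cells thinned to 1000 UMIs before they were classed, the pooled log2 fold change of Tyms was 0.88 ± 0.23 (adjusted p = 0.125), and the difference between culture and injury was not tested at that depth.

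**Figure D2:**
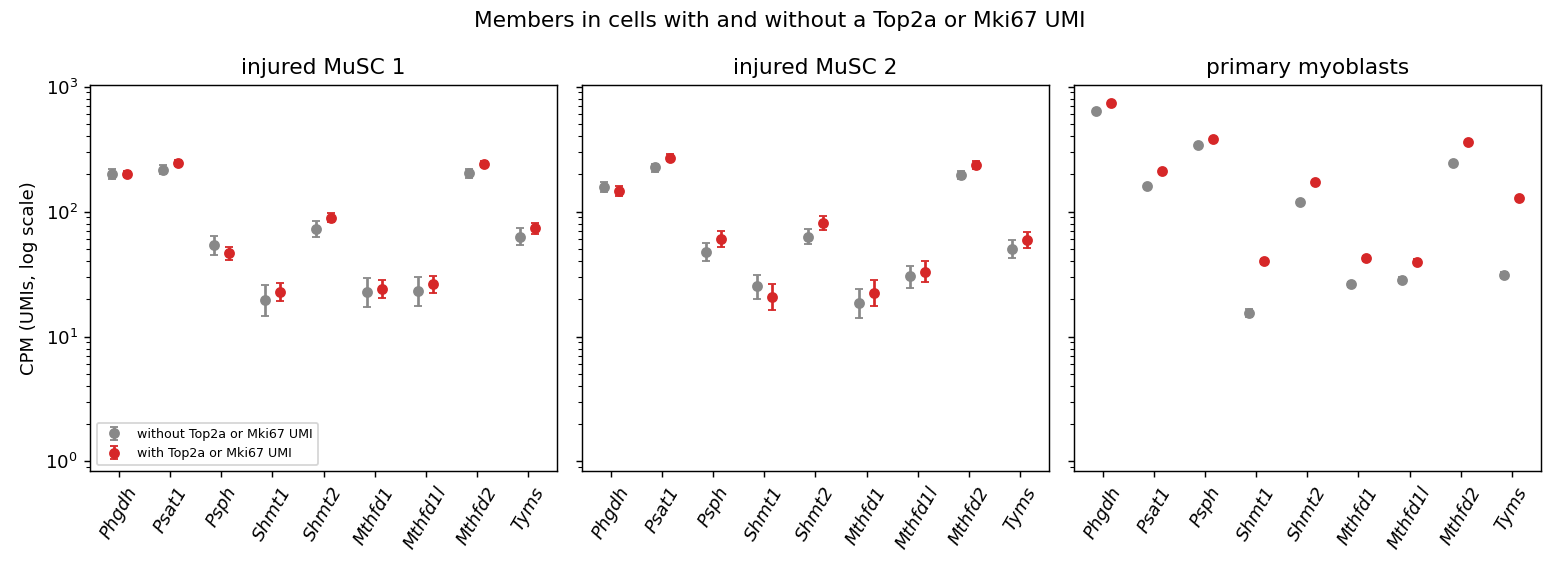
Level of each member in cells with (red) and without (grey) a Top2a or Mki67 UMI, in CPM on a log axis, for the 2 injured libraries and the culture, with exact 95% Poisson intervals for counting error. Tyms separates in culture (129 against 31.1) and lies close together in both injured libraries.

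Cells without a cycling UMI were divided further by Myog, the factor of differentiating myoblasts, as a description. In injured MuSC 1 and 2, Tyms was at 54.9 and 36.0 CPM in the 98 and 251 Myog-positive cells and at 65.9 and 55.3 in the 307 and 772 cells with neither UMI. In culture it was at 29.7 in 1511 and 35.0 in 598 cells. Tyms was lower in Myog-positive cells in each library, and so were Mthfd1, Mthfd2, Shmt1 and Shmt2. Shmt2 was nearly level in injured MuSC 1, at 72.8 against 73.2. Mthfd1 and Shmt1 had only 24 UMIs each in the Myog-positive cells of both injured libraries together. For Mthfd2 the gap was small, at 183 against 209, 181 against 203 and 246.5 against 248. Phgdh showed no such common order, at 186 against 206 in injured MuSC 1, 162 against 156 in injured MuSC 2 and 613 against 709 in culture. Psat1 was at 206 against 219.5, 238 against 221 and 161 against 162 in the same order of libraries. A Myog UMI was found in 17.2%, 19.1% and 70.6% of myogenic-like cells of the 3 libraries. In their other cells the shares were 5.81%, 4.49% and 66.7%. The other cells of the culture were only 33, with a median of 32109 UMIs. Most cultured cells of both classes thus had a Myog UMI, so its presence alone is a coarse split there. Clusters 22 and 23 of the culture had Myog among their 10 leading genes, while clusters 17 and 18 did not.

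In culture, 7 members were higher than in homeostatic MuSCs and none was lower. Of 12419 genes 39.5% were higher and 32.3% lower in that comparison (4904 and 4013 genes, and 5928 and 3164 without scaling). The 7 were again the serine synthesis genes, Shmt2, Mthfd1, Mthfd1l and Tyms. The largest log2 fold changes were those of Phgdh, 4.71 ± 0.22 (26.1-fold, adjusted p = 1.44e-14), and Psph, 4.06 ± 0.20 (16.6-fold, adjusted p = 5.78e-14). Tyms was at 3.17 ± 0.25, Mthfd1l at 2.78 ± 0.31, Shmt2 at 2.73 ± 0.21, Psat1 at 2.64 ± 0.20 and Mthfd1 at 1.39 ± 0.25. Shmt1 (-0.28 ± 0.22, adjusted p = 0.269) and Mthfd2 (0.02 ± 0.18, adjusted p = 0.938) did not pass, although without scaling Mthfd2 did (0.40, adjusted p = 0.0460). The comparison shares the homeostatic libraries with that of injury, and the single cultured library was assumed to vary like the sorted ones. In cells without a Top2a or Mki67 UMI Shmt1 was called lower (-1.16 ± 0.26, adjusted p = 0.000364), a choice of cells added after the values were seen. Of 11373 genes tested in these cells, 4374 were higher and 3734 lower. Their median depth was 23537 UMIs in culture and 2279 and 2314 in homeostatic MuSCs.

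Set against injured MuSCs, the serine synthesis genes went different ways in culture. Phgdh (log2 1.28 ± 0.19, 2.42-fold, adjusted p = 4.51e-06) and Psph (2.12 ± 0.18, 4.33-fold, adjusted p = 6.81e-10) were higher, and Psat1 was lower (-1.06 ± 0.19, adjusted p = 5.81e-05). The other 6 members were not called, with log2 fold changes from -0.42 (Mthfd1l) to 0.21 (Shmt2). Over all genes 34.3% were higher and 25.7% lower (4255 and 3186 genes, and 7338 and 1709 without scaling). This comparison depends on scaling: the median over all genes was 0.19 with TMM scaling and 0.89 without. Without scaling Psat1 lost its call (-0.36, adjusted p = 0.0791), and Shmt2 (0.91), Mthfd1 (0.64) and Mthfd2 (0.46) were called higher beside Phgdh and Psph. The homeostatic libraries enter the same fit, and Mthfd1l was called lower when the first of them was left out (-0.41, adjusted p = 0.0458) and when the second was (-0.44, adjusted p = 0.0344). In cells without a cycling UMI Tyms (-1.50 ± 0.24, adjusted p = 9.05e-06) and Shmt1 (-1.18 ± 0.27, adjusted p = 0.000648) were also lower in culture. Of 11373 genes tested in these cells, 3699 were higher and 2726 lower. Their median depth was 23537 UMIs in culture and 6629 and 2995 in injured MuSCs, and the part of depth in these calls was not tested. The mature myofibre list (10 genes) was at 3072 CPM in culture against 152 and 276 in injured MuSCs, and its part in these values was not tested.

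**Figure D3:**
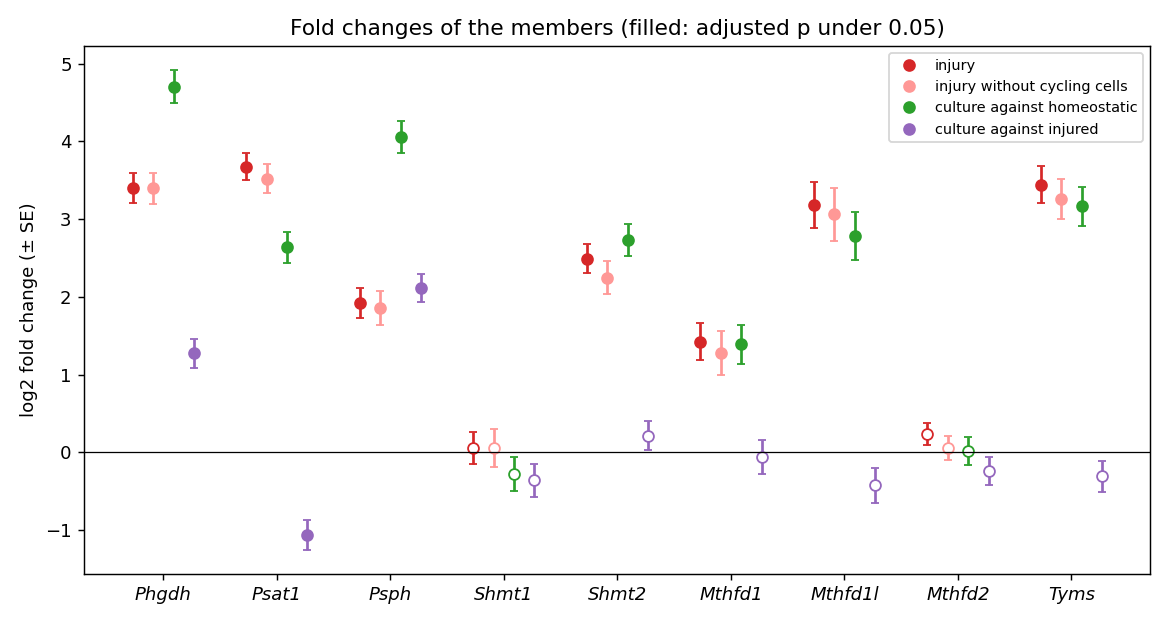
Log2 fold change ± SE of each member after injury (with all and without Top2a or Mki67-positive cells) and in culture (against homeostatic and against injured MuSCs), filled where the adjusted p was under 0.05. Psat1 alone lies below 0 with a call in culture against injured MuSCs (-1.06), and Shmt1 and Mthfd2 have open points throughout.

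Homeostatic MuSCs were compared with the myogenic-like cells of total muscle. Total muscle was sorted too, for live cells, and the labels name no age or muscle for the homeostatic MuSCs, so the gate, age and muscle cannot be told apart here. None of the 8 members tested passed, and Mthfd1l was not tested for lack of counts. Of 8002 genes 4.32% were higher and 4.11% lower in homeostatic MuSCs, and 1730 had an unadjusted p under 0.05. The 346 higher and 329 lower genes were 433 and 272 without scaling. The smallest p of a member was that of Psat1 (log2 -0.92 ± 0.34, unadjusted p = 0.0139, adjusted p = 0.111 with edgeR), whose levels in total muscle lay above those of homeostatic MuSCs. Mthfd2, with 72 and 104 UMIs in total muscle, was at -0.06 ± 0.16. Total muscle held 0 to 19 UMIs of each of the other members, so the comparison of those members rests on few counts. Phgdh was called higher in homeostatic MuSCs only when total muscle 2 was left out, which left a library with 0 Phgdh UMIs, and that fold change is set by the prior count.

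The cell types of total muscle place these levels. Among 11 types, myogenic-like cells had the highest Mthfd2, at 228 ± 4.21 CPM (SD, n = 2 libraries, 176 UMIs). Glial-like cells followed at 130 ± 38.0, then macrophage or monocyte-like cells at 81.3 ± 7.86 and T or NK-like cells at 71.0 ± 19.4, and the myogenic and glial ranges did not overlap. The lowest level was that of mature myofibre-like cells, 10.7 ± 1.23 (3 UMIs).

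Phgdh had another order. The class of B-like cells (113 ± 14.1) came first, before T or NK-like (101 ± 17.6) and glial-like cells (79.9 ± 48.0). These 3 overlapped in order and were followed by tenocyte-like cells (31.9 ± 12.1) and fibro-adipogenic-like cells (20.3 ± 0.279). Myogenic-like cells were 7th at 8.90 ± 12.6, on 8 UMIs in all. Psat1 was highest in glial-like cells (73.8 ± 23.3), with myogenic-like cells next at 41.5 ± 1.11 and T or NK-like cells at 22.7 ± 1.09, and these 3 ranges did not overlap.

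The other members rested on fewer counts. Tyms was highest in lymphatic or venular endothelial-like cells (37.7 ± 3.62, 19 UMIs) and stood at 6.47 ± 0.292 in myogenic-like cells, which were 9th. Shmt2 was nearly level over the first 5 types, from 22.3 to 25.9, each overlapping the next. Mthfd1l was highest in T or NK-like cells (22.8 ± 1.06), and Mthfd1 in macrophage or monocyte-like cells, where the 2 libraries differed widely (13.5 and 60.3). Shmt1 had at most 20 UMIs in any type. Shmt1 ranked first in mature myofibre-like cells (18.6 ± 1.65, 5 UMIs) and second in myogenic-like cells (13.6 ± 5.94), with overlapping ranges.

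**Figure D4:**
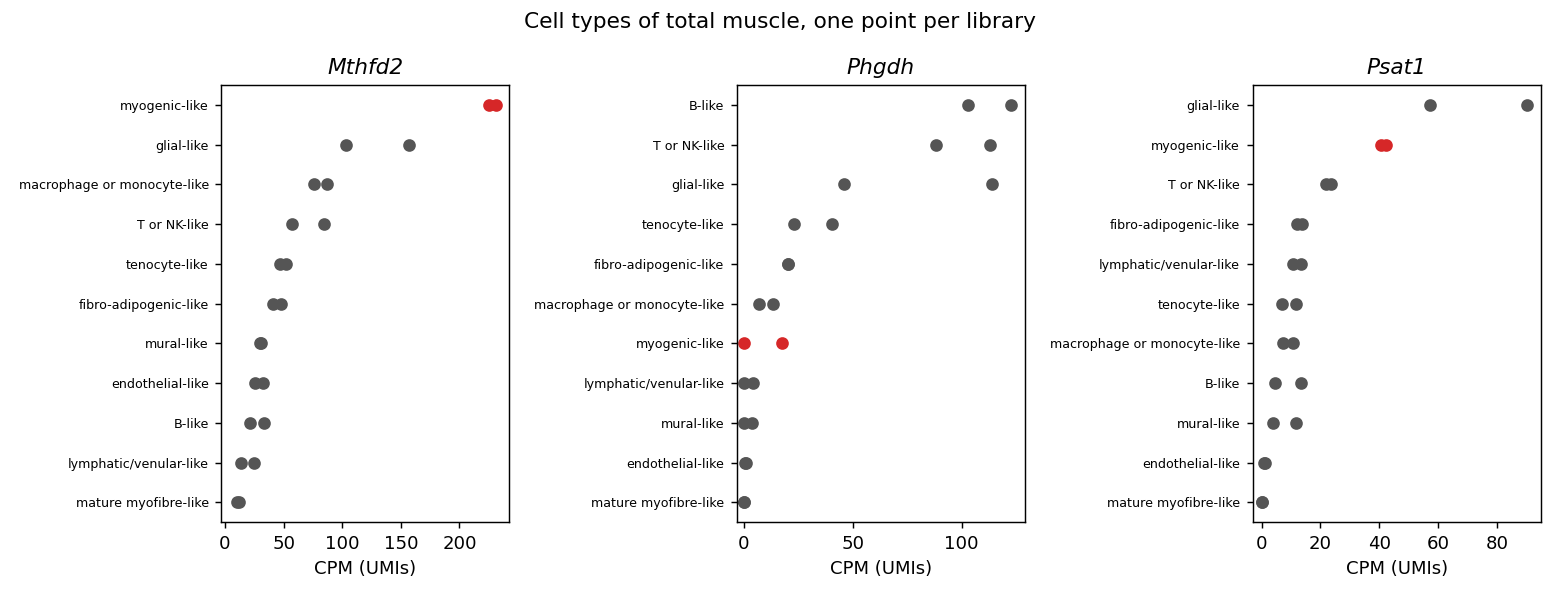
Level of Mthfd2, Phgdh and Psat1 in each cell type of total muscle in CPM, with 1 point per library and myogenic-like cells in red, sorted by mean. Myogenic-like cells lead for Mthfd2 (225 and 231), stand 7th for Phgdh and second for Psat1.

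Other genes of these pathways were taken from lists, whose counts are read against the shares over all genes: 38.4% higher and 37.3% lower after injury (median log2 0.03), and 39.5% and 32.3% in culture against homeostatic MuSCs (median 0.19). Of 11 tested genes of the folate cycle and folate transport, 8 rose after injury and 1 fell (median log2 1.62). Mthfd2l, a relative of Mthfd2 in mitochondria, rose by 1.77 ± 0.22, while Ggh, a folate hydrolase, fell by 0.62 on the log2 scale. Without the cycling-UMI cells, where 36.0% of all genes were higher and 37.2% lower, 5 of 9 rose and none fell. In culture against homeostatic MuSCs 8 of 13 were higher and 2 lower.

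Deoxynucleotide and pyrimidine genes were higher in 13 of 17 cases and lower in 3 after injury (median 2.12). These counts were the same without cells that had a Top2a or Mki67 UMI. In culture, 12 of the 17 were higher and 1 lower than in homeostatic MuSCs. Against injured MuSCs 4 were higher and 9 lower in culture (median -1.01), beside 34.3% and 25.7% over all genes (median 0.19). Tk1, thymidine kinase, went from 0.879 and 0.642 to 77.2 and 69.0 CPM (log2 6.83 ± 0.31), Dut from 10.3 in each library to 371 and 322 (5.37 ± 0.20) and Rrm2, a subunit of ribonucleotide reductase, from 16.7 and 16.4 to 356 and 326 (4.66 ± 0.18).

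Purine synthesis genes rose in 6 and fell in 3 of 12 cases (median 0.37), near the shares over all genes, so the count is no result about the list. Prps2 rose by 5.67 ± 0.27 and Pfas by 2.84 ± 0.20, while Impdh1 fell by 1.05 on the log2 scale. Pfas was at 112 and 127 in injured MuSCs and at 18.5 in culture, where it was lower than in injured MuSCs by a log2 fold change of -3.39 ± 0.23. Of the glycine cleavage system only Gcsh and Dld were tested. Gcsh rose (1.81 ± 0.18), and Dld fell by 0.40 on the log2 scale.

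The methionine cycle list rose in 4 and fell in 5 of 11 cases (median -0.44), again near the shares over all genes. Mat2a, which makes S-adenosylmethionine, went from 787 and 861 to 74.9 and 83.7 CPM (log2 -3.08 ± 0.15) and was at 307 in culture. Ahcyl2 fell as well (-2.34 ± 0.21), and Mtap, of methionine salvage, rose (2.15 ± 0.20). Genes of serine transport and use rose in 6 and fell in 9 of 19 cases (median -0.33), beside the 38.4% and 37.3% over all genes. Sfxn1, which carries serine into mitochondria, rose from 13.8 and 14.5 to 59.3 and 52.8 (2.29 ± 0.20), and Serinc3 (-2.79 ± 0.16) and Serinc1 (-1.55 ± 0.15) fell.

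ATF4 is the factor of the amino acid response, known to act on Phgdh, Psat1, Psph, Shmt2 and Mthfd2. Of 24 tested genes linked to it besides the members, 8 rose and 12 fell after injury (median -0.39), beside 38.4% and 37.3% over all genes. Atf5 fell from 104 and 111 to 10.2 and 13.2 CPM (-2.92 ± 0.18), Atf3 fell (-2.92 ± 0.26), and Asns, asparagine synthetase, rose from 6.15 and 5.78 to 37.9 and 28.6 (2.77 ± 0.26). In culture Asns stood at 385 (2.83 ± 0.19 against injured MuSCs) and Atf5 at 375 (4.32 ± 0.20). For the single cultured library against injured MuSCs, the list had a median log2 fold change of 0.82, beside 0.19 over all genes. In culture against homeostatic MuSCs the count was 12 higher and 9 lower of 25, near the 39.5% and 32.3% over all genes.

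The genes most like 3 of the members over the 7 libraries were found from log2(CPM + 1), centred on each gene's mean, among 3898 genes with a mean of at least 30 CPM. The measure is the root mean square difference, in log2 units. Nearest to Psat1 were Ube2m (0.23), Prelid1 (0.25) and Tipin (0.31). Nearest to Mthfd2 were Chchd2 (0.064), Pnrc2 (0.090) and Papola (0.11), which like it varied little. Nearest to Tyms were Cisd1 (0.18), Dnajc15 (0.20) and Mrpl14 (0.22). Cisd1 was at 17.0 and 22.8 in homeostatic MuSCs, 157 and 173 in injured MuSCs and 232 in culture. The 7 points share libraries and depth, so the likeness is a description.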

How the data were processed

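The authors deposited UMI counts for each gene and barcode of 7 droplet 3' libraries. These are whole numbers that were not normalized, per the file headers. Per the submitters' processing notes the build was mm10 and the tools were Seurat 2.3.4, Cell Ranger 2.2.0 and bcl2fastq 2.17.1, with no role given. Libraries held 3319283 to 114382567 UMIs in 1295 to 4429 barcodes. Cells with at least 200 genes and at most 10% mitochondrial UMIs were kept (15267 of 15474). Scrublet called 58 of them doublets (0.380%), so the 322 cells with the highest scores, 0.8% for every 1000 cells of a library, were left out instead. Scanpy 1.11.5 gave clusters (2000 variable genes, 30 components, 20 neighbours, Leiden in igraph 0.11.9 at resolution 1), compared with total muscle cells outside the cluster. A cluster took the name of the marker list best represented in its 10 leading genes, with ties settled by the share of markers raised, of which 3 were required. A cluster of 321 cells, 49 and 270 of them from injured MuSC 1 and 2, led by mitochondrial genes, stayed unnamed and out of the sums, because its median UMI count was far below that of its libraries and no marker of its list was among its 10 leading genes. Sums over the myogenic-like cells of each library were tested with edgeR 4.0.16 in R 4.3.3 (quasi-likelihood, TMM scaling, filterByExpr, Benjamini-Hochberg over all genes). Standard errors are the log2 fold change over the square root of the F statistic. Biological coefficients of variation were 11.8% to 14.2%. The script was tested on simulated data. Poisson and binomial intervals are exact 95% intervals, and these and the limit for a count of 0 (3 counts) cover counting error only. A near-identical copy is another GENCODE M21 gene that blastn 2.17.0 matched to a transcript's last 300 bases at 95% identity along 90 bases or more. Promoter letters are from RefSeq, with entries for all 9 members.

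The members, gene lists, tests and the rule for named genes were chosen with earlier results of these data known. The rule names all members and, per list, up to 3 genes past the threshold with the largest change after injury and at least 30 CPM in either group; 1 gene so named is not reported here. Groups come from the labels, and libraries of different groups share only a replicate number. Alternatives were DESeq2 1.42.0, no scaling, no filter, leaving out libraries, other sets of cells, all libraries in 1 fit and the replicate number as a block. Protein identities were not analysed here. The comparison of cultured cells without a Top2a or Mki67 UMI and the test of culture minus injured were added after the values were seen.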

Additional observations from a re-analysis of the deposited data

Results flagged for a closer look

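For 4 members the ratio of the level in cells with to that in cells without a Top2a or Mki67 UMI differed between culture and injured MuSCs, by the interaction of class and group in an edgeR fit with library as a block. On the log2 scale the ratio was higher in culture by 1.77 ± 0.12 for Tyms and by 1.34 ± 0.20 for Shmt1. For Mthfd2 it was higher by 0.23 ± 0.07 and for Phgdh by 0.21 ± 0.07. Of all 9876 genes tested, 6.49% were higher and 5.49% lower by the same test. This test was added after the values were seen. The fit has 1 residual degree of freedom among libraries, and the single cultured library is assumed to vary like the injured ones. Its p-values therefore lean on variance shared over genes and measure no spread between cultured libraries, so they are not printed. Cultured cells were deeper, with a median of 24637 UMIs against 7431 and 3281.5 in injured MuSCs. The difference was not tested at equal depth. The log2 ratio of Tyms was 2.05 in culture and 0.22 and 0.24 in the injured libraries, and that of Shmt1 was 1.37 against 0.21 and -0.27. Mthfd2 had 0.54 against 0.25 and 0.27, and Phgdh 0.22 against -0.01 and -0.11.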

How the results depend on the processing

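The counts of members and of genes called after injury moved by less than 1.5 times under all 14 alternatives run. Without scaling the median over all genes after injury was -0.27 in place of 0.03, and the log2 fold change after injury was -0.24 for Shmt1 and -0.060 for Mthfd2 (-0.22 and -0.22 without cycling-UMI cells), that of the comparison with total muscle was 0.026 for Mthfd2, and that of culture against homeostatic MuSCs was 0.10 for Shmt1 and 0.40 for Mthfd2. In culture against injured MuSCs it gave 5 members higher and 0 lower, 7338 genes higher and 1709 lower, with Shmt1 at 0.34, Mthfd1 at 0.64, Mthfd1l at 0.27, Mthfd2 at 0.46 and Tyms at 0.39. In the cycling split it gave 37 genes lower and Phgdh at 0.038, and the difference of the split between culture and injury was called for 5 members, Psat1 (0.18) among them. The wider cycling list left 3 members higher after injury, with 935 genes higher and 1267 lower, Shmt1 at -0.19 and Mthfd2 at -0.44. Fewer cells were left there.

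DESeq2 called 163 genes higher for the comparison with total muscle, 3267 for culture against homeostatic and 1860 for culture against injured MuSCs, with Mthfd2 at -0.14 against homeostatic MuSCs. For the cycling split it called 1 member, 76 genes higher and 148 lower. No filter on low counts gave 4 members, 508 genes higher and 464 lower in the split, with Phgdh at 0.0062, Mthfd2 at 0.013 in the comparison with total muscle and Mthfd1 at 0.10 in culture against injured MuSCs. GC-rich barcodes gave 155 genes higher and 159 lower in the comparison with total muscle, 25 higher in the split, Psph at -0.0027 there and Mthfd2 at -0.10 in culture against homeostatic MuSCs. Mthfd2 was at -0.041 there with stricter cell filters, and at 0.025 in the comparison with total muscle with 7 libraries in 1 fit. In the split, at least 2 UMIs gave 3 genes higher and 28 lower, and thinning gave 13 lower, Psph at -0.017 and Mthfd1l at -0.27. In cells without a cycling UMI, culture gave 1 member lower against homeostatic and 3 lower against injured MuSCs, with Mthfd2 at -0.31 against homeostatic MuSCs. The cause of these differences was not tested.

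Leaving out 1 library at a time gave the following ranges. In the cycling split, 0 to 3 members and 1 to 276 genes were higher and 11 to 391 genes lower, with Phgdh from -0.10 to 0.12, Psph from -0.0029 to 0.23 and Shmt1 from -0.068 to 0.91. In the comparison with total muscle, 0 to 1 members, 228 to 455 genes higher and 200 to 360 lower were found, with Mthfd1 from -0.21 to 0.043 and Mthfd2 from -0.082 to 0.020. In culture against injured MuSCs 1 to 2 members were lower and Mthfd1 ranged from -0.16 to 0.072, and in culture against homeostatic MuSCs Mthfd2 ranged from -0.036 to 0.065. Shmt1 ranged from -0.12 to 0.20 after injury and from -0.14 to 0.23 without cycling-UMI cells.

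With the replicate number as a replicate block, 7 members were higher after injury (4024 genes higher and 3871 lower), and Mthfd2 was at -0.024 in culture against homeostatic MuSCs. The block changed no call of a member. Same-numbered libraries did not deviate together (correlation over 10623 genes -0.03 for injury and 0.0016 over 8002 genes for the comparison with total muscle). Total muscle limits that comparison, with 0 to 19 UMIs for every member except Mthfd2.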
